A study of Mus musculus with 6 samples.

Results

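The 51 genes described here, 3 of them best known from the testis, bear names of replication-dependent core and linker histone genes of the mouse. They are the genes in the deposited table whose Ensembl identifier belongs, in GENCODE vM21, to a protein-coding gene with a symbol of the Hist1h, Hist2h, Hist3h or Hist4h families, and they make up 51 of the 22933 genes in the table. GENCODE vM21 holds 67 such genes, and the other 16 were not analysed here. By type they comprise 6 linker H1 genes, 16 H2A genes, 13 H2B genes, 5 H3 genes and 11 H4 genes. By position, 43 lie in the Hist1 cluster on chromosome 13, 6 in the Hist2 cluster on chromosome 3 and 2 in the Hist3 cluster on chromosome 11. All 51 had a mean of at least 10 reads over the 6 libraries, and all 51 entered the test.

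The study measured total RNA, depleted of ribosomal RNA, in mouse embryonic stem cells of the strain m ESC Ezh2 fl/fl. Ezh2 is the methyltransferase of the Polycomb complex PRC2 and acts on histone H3. In the tamoxifen group (3 libraries, labelled Ezh2 KO) the cells had received 800 nM 4-hydroxytamoxifen over 96 hours, and RNA was taken at day 4. In the untreated group (3 libraries, labelled Ezh2 wild type) the same Ezh2 fl/fl cells had received no tamoxifen. Both groups carried the floxed Ezh2 alleles and grew on gelatin in medium with fetal calf serum, serum replacement and leukaemia inhibitory factor at 1000 U per ml. The labels do not name the recombinase or how it was expressed, and no vehicle-treated or tamoxifen-treated control without floxed alleles is among the samples. The labels do not say whether replicates came from separate cultures, so that p-values measure only the spread between these libraries, which may be technical.

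Replication-dependent histone genes supply the bulk of new histone protein while DNA is copied. Histones H2A, H2B, H3 and H4 form the nucleosome core and H1 binds the linker DNA between nucleosomes. Their genes are clustered, mostly lack introns, and are transcribed in S phase in nuclear bodies organised by Npat. Most of their mRNAs are not polyadenylated: they end just after a short stem-loop that is bound by the protein Slbp and cleaved with the help of the U7 snRNP, whose Lsm10 and Lsm11 proteins are specific to it. Embryonic stem cells cycle rapidly, with a large fraction of cells in S phase. Libraries made from rRNA-depleted total RNA, as here, do not select for poly(A) tails.

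The stem-loop is the sequence that sets these mRNAs apart from others, and its different forms among the members are shown here. It spans 16 bases, with 6 stem bases on each side in lower case and the 4 loop bases in capitals, written 5′ to 3′ as DNA on the sense strand.
Hist1h1c: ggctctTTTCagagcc
Hist1h1t: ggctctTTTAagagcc
Hist2h2ac: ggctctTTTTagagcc
Hist1h4a: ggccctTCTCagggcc
Hist1h4b: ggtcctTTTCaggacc
Hist1h4d: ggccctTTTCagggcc
Hist1h4i: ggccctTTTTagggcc
The histone stem-loop motif was found in the annotated transcripts of 35 of the 51 members, in these 7 distinct forms. The form shown for Hist1h1c was the commonest and stood in 19 members. The forms shown for Hist1h4a, Hist1h4b, Hist1h4d and Hist1h4i stood only in H4 genes, and the other 3 forms only in H1, H2A, H2B and H3 genes. The first base of the stem-loop lay 21 to 58 bases after the stop codon, with a median of 31. In GRCm38 coordinates the Hist1h1c copy lies at chr13:23739512-23739527 on the plus strand, the Hist1h4d copy at chr13:23581950-23581965 on the plus strand and the Hist2h2ac copy at chr3:96220418-96220433 on the minus strand, each in the annotated 3′ UTR. Of the 41 members with at least 30 annotated bases after the stop codon, 85.4% held the motif within 300 bases, against 0.0366% of 21884 other protein-coding genes. The 10 members with shorter annotation, such as Hist1h1b and Hist1h4k, could not be searched. Hist1h2bc, Hist1h2bq, Hist1h2br and Hist2h2be have long annotated 3′ ends without these letters, which says only that the letters are not in that window.

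The promoters of the members share short motifs. In RefSeq sequence of GRCm38.p6, covering 250 bases before to 50 bases after the start, 48 members matched an entry. On either strand TATAAA stood in 64.6% of them, against 14.2% of all 27025 promoters, and CCAAT stood in 83.3%, against 37.9% of all promoters. Windows of divergent neighbouring genes can overlap, so that the same motif can be counted for both. The TATAAA of Hist1h2ad, for example, was also counted for its neighbour Hist1h2bf. The window of Hist1h2ad is printed because it also holds the start of a divergent H2B gene, Hist1h2bf, 185 bases away, and because both genes of this kind of pair are compared below. It lies at chr13:23574131-23574430 on the plus strand, and the capitals mark both of these motifs on either strand.
Hist1h2ad: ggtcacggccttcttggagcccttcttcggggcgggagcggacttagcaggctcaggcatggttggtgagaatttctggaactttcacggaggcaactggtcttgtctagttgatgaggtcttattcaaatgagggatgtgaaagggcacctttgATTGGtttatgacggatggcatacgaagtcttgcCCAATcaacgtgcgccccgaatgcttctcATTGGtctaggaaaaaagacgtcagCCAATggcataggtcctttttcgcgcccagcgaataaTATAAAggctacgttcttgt
These letters are a description of the window and not evidence of a bound factor.

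The deposited values could be traced back to whole numbers of reads, with a single solution for 98.8% of the values above 0 and for every value of the 51 members. The totals of the recovered reads were 3847167, 2333978 and 5111706 in the tamoxifen libraries and 3855124, 5689696 and 2678122 in the untreated libraries. Values are therefore given on 2 scales: the deposited value, which the authors normalised, and the scaled reads, which are the recovered reads divided by a library size factor of the median-ratio type. Ezh2, the targeted gene, had deposited values of 2258, 2559 and 2609 in the tamoxifen libraries, against 4165, 3620 and 3483 in the untreated libraries. The groups did not overlap, and the tamoxifen mean of 2475 ± 189.9 was 65.9% of the untreated mean of 3756 ± 361 (SD, n = 3 each). The log2 fold change was -0.60 (95% interval -0.88 to -0.32), with an adjusted p of 0.195 in limma, and the exact two-sided permutation p was 0.1, the smallest that 3 libraries against 3 allow. A value over the whole gene checks the deletion in part, since reads from exons outside the floxed region remain. On reads the difference was smaller: the log2 fold change was -0.40 on scaled reads (311, 359 and 317 in the tamoxifen libraries, against 585, 378 and 371 in the untreated libraries, with no overlap) and -0.13 on reads over library totals, where the groups overlapped. On reads over library totals the median log2 fold change of all genes was 0.25. All 8 listed embryonic stem cell markers were detected, the feeder fibroblast markers summed to 20.2, 52.3 and 48.2 scaled reads in the tamoxifen libraries and 19.4, 43.4 and 20.5 in the untreated libraries, with Lum at 0 in all 6.

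Some histone genes were among the most abundant transcripts of these cells per kilobase. Together they took 0.702%, 0.861% and 1.14% of the recovered reads in the tamoxifen libraries and 0.688%, 1.64% and 1.29% in the untreated libraries. The untreated libraries had both the lowest and the highest shares, and the groups overlapped. Per kilobase of annotated exons, the gene with the highest level, averaged over the 6 libraries, was Hist1h1a, which encodes a linker histone, at 6084 scaled reads per kb, rank 17 among all genes with an annotated length. It was followed by the linker gene Hist1h1b at 3289, the H4 gene Hist1h4f at 3024 and the H2B gene Hist1h2bb at 2579 scaled reads per kb. The H3 gene with the highest level was Hist1h3b at 1552 and the H2A gene with the highest level was Hist1h2ad at 1558 scaled reads per kb. The lowest level of any member was that of Hist2h2be, at 4.74 scaled reads per kb, with 9, 11 and 15 reads in the tamoxifen libraries and 9, 29 and 7 reads in the untreated libraries. The long exon model of some members, such as Hist1h1d at 7425 bases, lowers their level per kb.

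**Figure D1:**
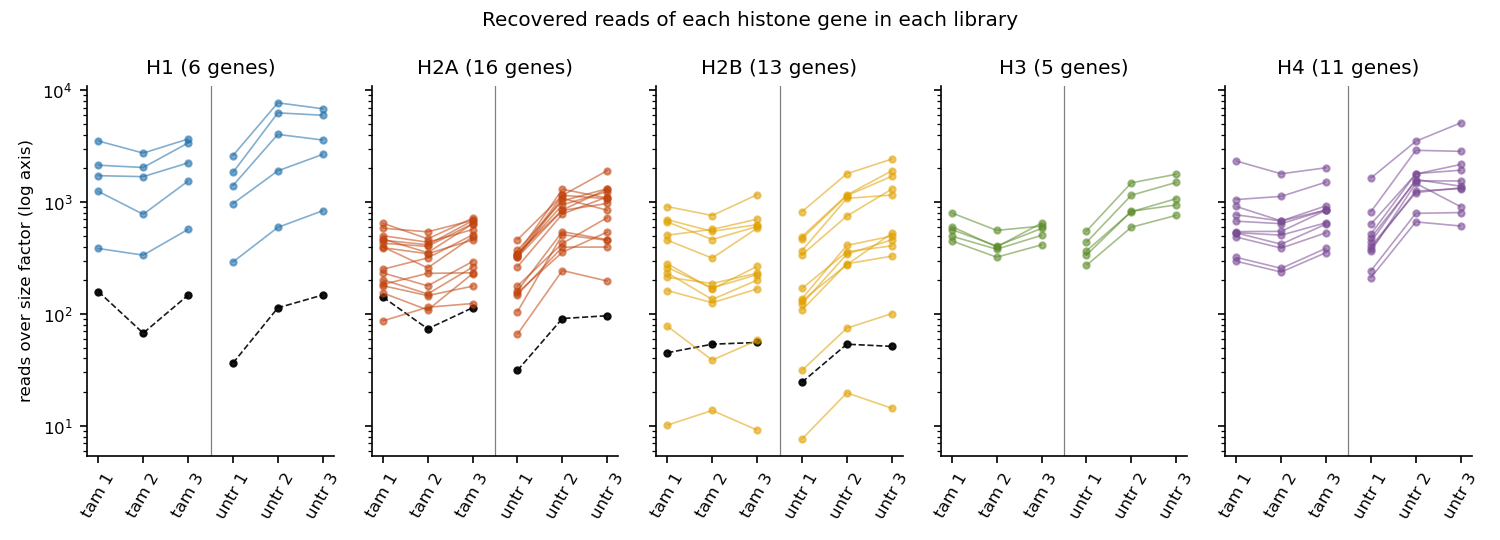
Scaled reads (recovered reads over size factor, log axis) of each of the 51 histone genes in each library, by histone type, with the tamoxifen (tam) libraries left of the untreated (untr) libraries. Lines join the values of 1 gene within a group and mark no order of libraries; dashed black lines are the testis-type genes Hist1h1t, Hist1h2aa and Hist1h2ba. In all 51 genes the lowest untreated value is that of untreated 1, against 4461 of the 11842 genes with at least 10 reads.

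The histone genes varied together from library to library. Summed over the 51 genes, scaled reads were 30324, 25037 and 35544.5 in the tamoxifen libraries, against 22371, 63393 and 70587 in the untreated libraries. The untreated group held 1 low and 2 high libraries: untreated 3 held 3.16 times, and untreated 2 held 2.83 times, the histone reads of untreated 1. Among the tamoxifen libraries the highest held 1.42 times the lowest. Untreated 1 was the lowest untreated library for 51 of the 51 genes, against 4461 of the 11842 genes with at least 10 reads. For 40 of the 51 all 3 tamoxifen libraries lay between the untreated extremes, against 3792 of those 11842 genes. The range of the 3 untreated libraries had a median of 1.77 log2 units over the members, against 0.67 over the 11842 genes with at least 10 reads, while the range of the tamoxifen libraries had medians of 0.53 and 0.41. Since these are bulk samples, a smaller fraction of cells in S phase and less histone mRNA per cell cannot be told apart. The untreated libraries also differed in their trends with GC content and length across genes, which are given below.

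The types kept their proportions through this. H1 genes took 30.2%, 30.5% and 32.4% of all histone reads in the tamoxifen libraries and 31.9%, 32.5% and 28.4% in the untreated libraries. H4 genes took 27.8%, 29.0% and 26.9% in the tamoxifen libraries and 27.4%, 29.2% and 28.3% in the untreated libraries. The shares of H2A, H2B and H3 lay between 17.5% and 19.4%, between 12.2% and 15.4%, and between 7.69% and 9.61% over all 6 libraries. For each of the 5 types the tamoxifen and untreated ranges overlapped.

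**Figure D2:**
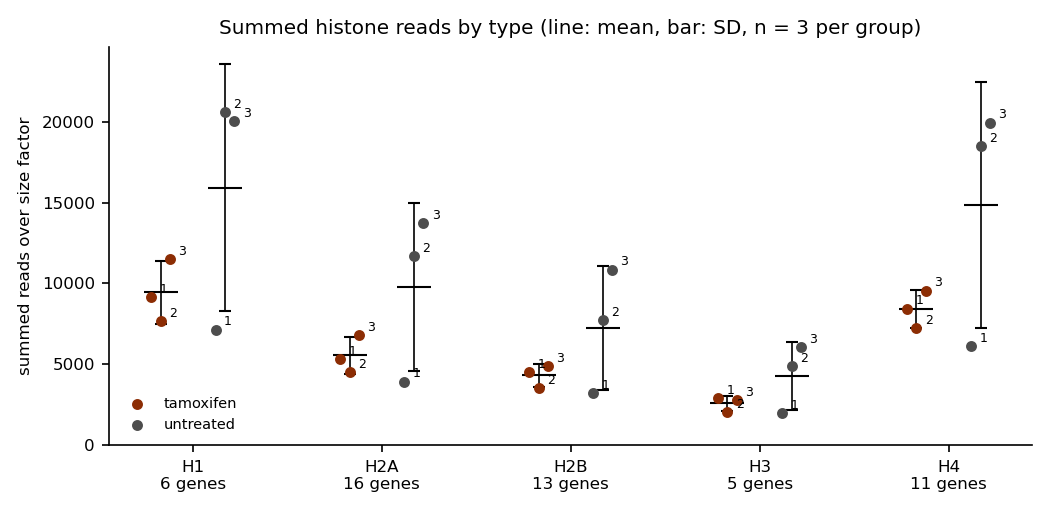
Summed scaled reads of each histone type in the 3 tamoxifen libraries (left of each pair) and the 3 untreated libraries (right), with replicate numbers beside the points; horizontal lines are means and bars are SD (n = 3). In every type untreated 1 lies below the 3 tamoxifen libraries and untreated 2 and 3 lie above them.

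No histone gene passed the test between tamoxifen and untreated cells. In limma on log2 of the deposited value plus 1, fitted over the 17427 genes whose deposited values averaged 10 or more, 0 of the 51 members had a Benjamini-Hochberg adjusted p under 0.05, and 0.195% of all genes did. At an unadjusted p under 0.05, 1 of the 51 was higher in tamoxifen cells (Hist1h2bj), against 5.34% of all genes, and 2 were lower (Hist1h3e and Hist1h4n), against 3.99% of all genes. On scaled reads limma likewise called 0 of the 51 members, against 0.023% of all genes. At an unadjusted p under 0.05, 1 member was lower on that scale, the H2A gene Hist1h2ak, against 3.13% of all genes, and 0 were higher. That gene had 154, 108 and 229 scaled reads in the tamoxifen libraries and 154, 355 and 539 in the untreated libraries, a log2 fold change of -0.98 (95% interval -1.89 to -0.07, unadjusted p 0.0372, adjusted p 0.595 in limma).

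Most members were lower on the scale of reads, while on the scale of deposited values they were split almost evenly between lower and higher. The median log2 fold change of the 51 genes was -0.63 on scaled reads, with 48 of the 51 below 0, against 50.4% of all genes. On the deposited values the median was -2.0e-05, with 28 below 0, against 50.5% of all genes. The summed scaled reads averaged 30302 ± 5254 in tamoxifen cells and 52117 ± 26011 in untreated cells (SD, n = 3 each), a ratio of 0.581. The untreated library that lay low bears on this count, and it was singled out after its values were seen. Without untreated 1, limma on scaled reads gave 45 members lower at an unadjusted p under 0.05, against 8.14% of all genes, with a median log2 fold change of -1.15, but still called 0 of the 51, with a smallest adjusted p of 0.129. Without the same library, 8 members were lower at that level on deposited values (5.76% of all genes), 19 on reads over library totals (1.11% of all genes) and 41 on reads with GC content and length trends removed (8.09% of all genes). On the last of these scales 4 members were then called lower, against 0.181% of all genes. Leaving out untreated 2 or untreated 3 instead gave median log2 fold changes of -0.36 and -0.27 on scaled reads. In both of these fits 0 members were lower at an unadjusted p under 0.05 in limma.

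**Figure D3:**
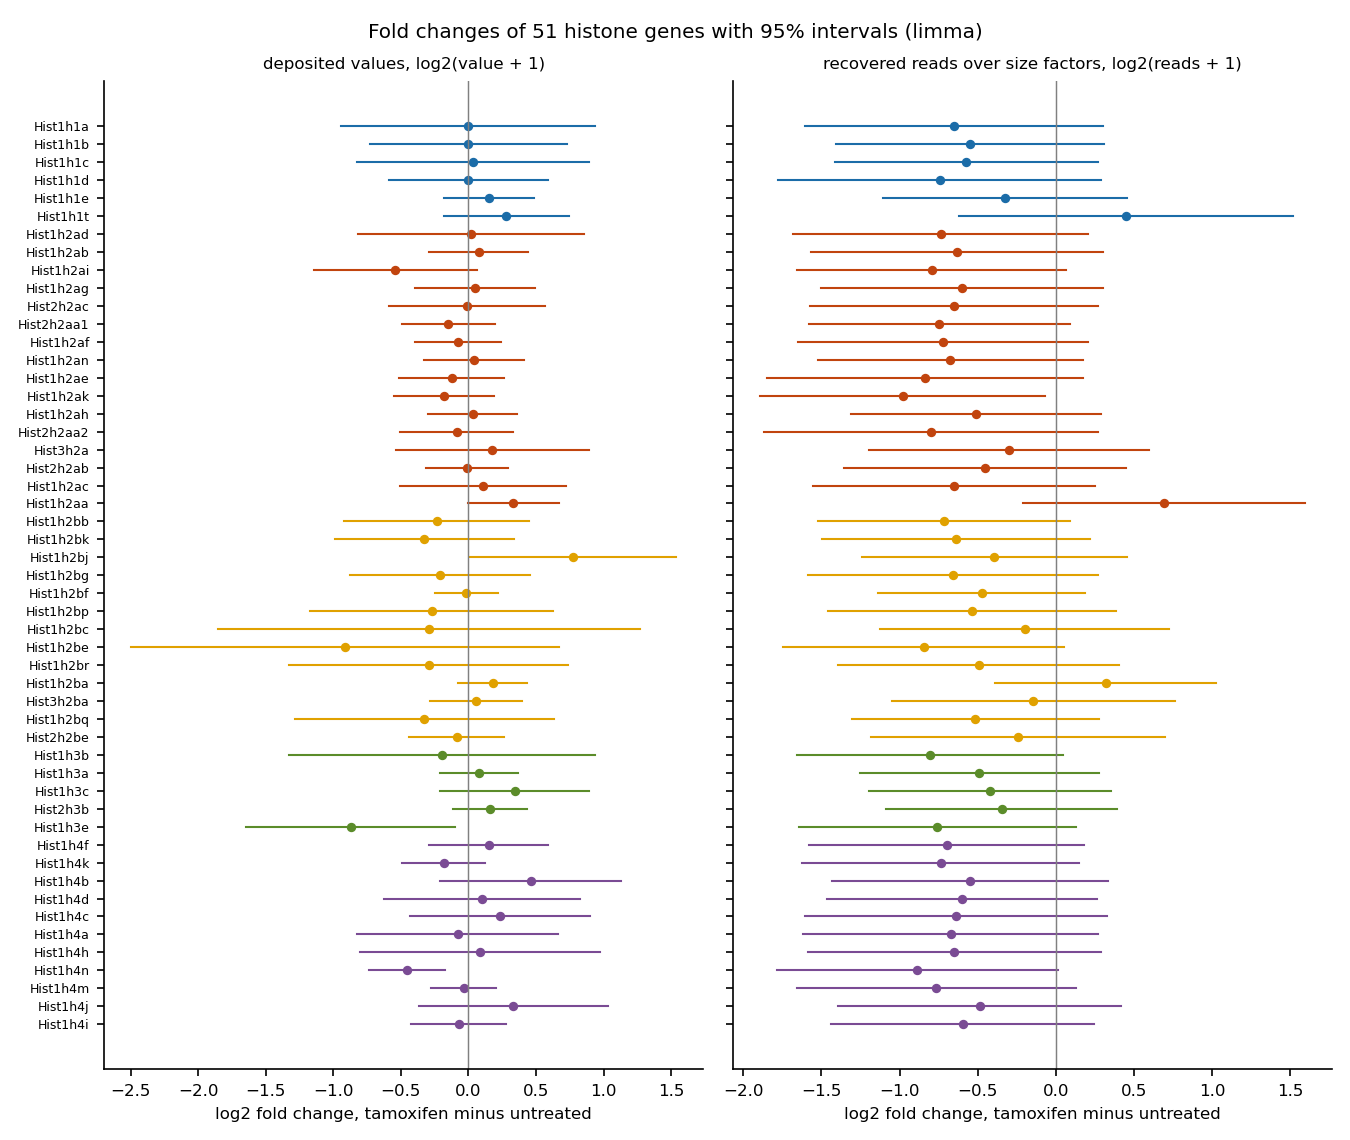
Log2 fold changes, tamoxifen minus untreated, of the 51 histone genes with 95% intervals from limma, on deposited values (left) and on recovered reads over size factors (right). Genes are ordered by type (H1, H2A, H2B, H3, H4, coloured as in the plot of reads by library) and by level per kb within a type. On the right 48 of the 51 points lie below 0, and 1 interval leaves out 0.

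The linker histone genes show how the 2 scales part. Hist1h1a had 3127, 2200 and 5997 reads in the tamoxifen libraries and 3086, 11372 and 3331 reads in the untreated libraries. Its scaled reads were 3513, 2740 and 3657 in the tamoxifen libraries, against 2603, 7710 and 6824 in the untreated libraries. Its deposited value nevertheless lay between 571613 and 571634 in all 6 libraries. That is the highest step of the deposited values, on which exactly 10 genes stood in each library, Hist1h1a among them. Its log2 fold change was therefore -1.1e-05 on deposited values and -0.65 on scaled reads (95% interval -1.61 to 0.30, adjusted p 0.725 in limma). Hist1h1b had deposited values of 170739, 209991 and 250794 in the tamoxifen libraries and 209994, 250797 and 170740 in the untreated libraries, the same 3 steps in another order. Its scaled reads were 1720, 1686 and 2239 in the tamoxifen libraries, against 1404, 4025 and 3585 in the untreated libraries. Hist1h1d took 3 common steps in the same way, with 27238, 42681 and 36046 in the tamoxifen libraries and 27238, 42683 and 36045 in the untreated libraries. Hist1h1c had 1245, 777 and 1540 scaled reads in the tamoxifen libraries and 968, 1901 and 2665 in the untreated libraries, with the groups overlapping.

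In 49 of the 51 members the untreated libraries spanned a smaller range on deposited values than on scaled reads. The 51 deposited values summed to 2092180, 2152250 and 2205220 in the tamoxifen libraries and 2074520, 2166320 and 2168800 in the untreated libraries, with a ratio of group means of 1.01, Hist1h1a being the largest part of each sum. Each deposited unit stood for a different number of reads: the median deposited value per read among members was 49.8, 65.8 and 23.5 in the tamoxifen libraries and 48.7, 14.7 and 37.2 in the untreated libraries. Among all genes with at least 10 reads it was 10.9, 12.3 and 6.07 in the tamoxifen libraries and 7.89, 6.86 and 21.1 in the untreated libraries. The median untreated range of the members was 0.47 log2 units on deposited values, against 0.49 for all genes with at least 10 reads. By type it was 0.58 for H1, 0.37 for H2A, 0.95 for H2B, 0.43 for H3 and 0.55 for H4 genes. The exceptions were Hist1h2be and Hist1h2bc, whose untreated deposited values differed by 6.60 and 5.98 times, against 3.87 and 4.01 times on scaled reads. Hist1h3b also varied widely on the deposited scale, with 69299, 42868 and 19501 in the tamoxifen libraries and 55929, 36162 and 42873 in the untreated libraries.

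Among the H2A genes 15 of the 16 had fewer scaled reads on average in tamoxifen cells, and none passed the test. Hist1h2ad, the H2A gene with the highest level, had 647, 468 and 717 scaled reads in the tamoxifen libraries, against 461, 1146 and 1907 in the untreated libraries (log2 fold change -0.74, 95% interval -1.68 to 0.21). Hist1h2ab had 467, 353 and 638 scaled reads in the tamoxifen libraries, against 334, 944 and 1237 in the untreated libraries. Untreated 1 lay below all tamoxifen libraries and the other untreated libraries above them in both genes. Hist1h2ai and Hist1h2ag followed, with log2 fold changes of -0.80 and -0.60 on scaled reads and of -0.54 and 0.05 on deposited values.

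Among the H2B genes 12 of the 13 had fewer scaled reads on average in tamoxifen cells. Hist1h2bb had 911, 757 and 1162 scaled reads in the tamoxifen libraries, against 819, 1790 and 2420 in the untreated libraries (log2 fold change -0.71, 95% interval -1.52 to 0.09). Hist1h2bj had opposite directions on the 2 scales. Its deposited values were 20627, 48492 and 36160 in the tamoxifen libraries, against 21347, 18704 and 18089 in the untreated libraries (log2 fold change 0.77, unadjusted p 0.0468, adjusted p 0.529 in limma). Its scaled reads were 506, 569 and 702 in the tamoxifen libraries and 368, 1078 and 1155 in the untreated libraries (log2 fold change -0.39). The groups overlapped on both scales. Hist1h2bk and Hist1h2bg had log2 fold changes of -0.64 and -0.66 on scaled reads.

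All 5 H3 genes had fewer scaled reads on average in tamoxifen cells. Hist1h3b had 799, 558 and 609 scaled reads in the tamoxifen libraries, against 549, 1484 and 1772 in the untreated libraries (log2 fold change -0.80, 95% interval -1.65 to 0.05). Hist1h3e had deposited values of 25211, 17288 and 22634 in the tamoxifen libraries, against 25210.4, 42875 and 55930 in the untreated libraries (log2 fold change -0.87, unadjusted p 0.0328, adjusted p 0.50 in limma). Tamoxifen 1 and untreated 1 stood at the same step, so that the groups overlapped there. On scaled reads its log2 fold change was -0.76 (95% interval -1.65 to 0.13). Hist1h3a, Hist1h3c and Hist2h3b had log2 fold changes of -0.49, -0.42 and -0.35 on scaled reads.

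All 11 H4 genes had fewer scaled reads on average in tamoxifen cells. In all 11 the tamoxifen libraries lay between the untreated extremes, against 3792 of the 11842 genes with at least 10 reads. Hist1h4f had 912, 678 and 925 scaled reads in the tamoxifen libraries, against 635, 1777 and 2168 in the untreated libraries (log2 fold change -0.70, 95% interval -1.58 to 0.18). Hist1h4d had 2326, 1789 and 2025 scaled reads in the tamoxifen libraries, against 1639, 3493 and 5103 in the untreated libraries. Hist1h4n had the smallest p of any member on deposited values. Those were 18088, 18086 and 16056 in the tamoxifen libraries, against 23624, 25214 and 22633 in the untreated libraries, with no overlap (log2 fold change -0.45, 95% interval -0.74 to -0.17, unadjusted p 0.00742, adjusted p 0.318 in limma). Its scaled reads were 487, 387 and 531 in the tamoxifen libraries, against 382, 1255 and 1317 in the untreated libraries, and these did overlap. Its coding sequence is identical to that of Hist1h4m, whose deposited log2 fold change was -0.03, and how reads that match both were assigned is not given in the sources used here. On deposited values the groups stood apart in Hist1h2aa, higher in tamoxifen cells, against 7.92% of all genes, and in Hist1h4k and Hist1h4n, lower, against 7.33%. On scaled reads they stood apart in 0 members, against 13.3% of all genes. Hist1h4b and Hist1h4k had log2 fold changes of -0.55 and -0.74 on scaled reads.

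A set of 3 genes departed from the rest, and they were singled out after their values were seen. Hist1h1t, Hist1h2aa and Hist1h2ba encode the H1, H2A and H2B histones best known from the testis, and they were the 3 members with more scaled reads on average in tamoxifen cells. Hist1h2aa had 142, 73.5 and 113 scaled reads in the tamoxifen libraries and 31.2, 90.9 and 96.3 in the untreated libraries (log2 fold change 0.69, 95% interval -0.21 to 1.59). Hist1h1t had 158, 67.3 and 147 scaled reads in the tamoxifen libraries and 36.3, 113 and 148 in the untreated libraries (log2 fold change 0.45). Hist1h2ba had 44.9, 53.6 and 55.5 scaled reads in the tamoxifen libraries and 24.5, 53.6 and 51.2 in the untreated libraries (log2 fold change 0.32). The groups overlapped in all 3 genes, and none passed the test. Once trends of each library with GC content and length were removed, 0 of the 51 members were called, against 0.156% of all genes, 2 were higher at an unadjusted p under 0.05, against 5.62% of all genes, and 2 were lower, against 5.12%. The higher pair were from this set: Hist1h2aa had a log2 fold change of 1.01 (unadjusted p 0.00319, adjusted p 0.197 in limma) and Hist1h2ba one of 0.62 (unadjusted p 0.0175, adjusted p 0.347). The lower pair were Hist1h2ak and Hist1h4n, each with a log2 fold change of -0.60 on that scale. Hist1h2aa and Hist1h2ba are divergent neighbours with 306 bases between their starts.

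Set against their own type, so that the library-wide swing in histone reads drops out, these genes took a larger share in every tamoxifen library than in any untreated library. Hist1h2aa made up 2.67%, 1.62% and 1.66% of H2A reads in the tamoxifen libraries, against 0.795%, 0.778% and 0.702% in the untreated libraries. Hist1h1t made up 1.73%, 0.88% and 1.28% of H1 reads in the tamoxifen libraries, against 0.508%, 0.549% and 0.737% in the untreated libraries. Hist1h2ba made up 0.996%, 1.51% and 1.13% of H2B reads in the tamoxifen libraries, against 0.761%, 0.693% and 0.472% in the untreated libraries. The share of type stood apart between groups, higher in tamoxifen cells, in 8 of the 51 members, which is 15.7% of them, and lower in 3, which is 5.88%. Genes outside the types have no such share to set beside these counts. Shares within a type add up to the whole and so are not independent, and these were not tested. The genes Hist1h1t, Hist1h2aa and Hist1h2ba were picked for more scaled reads on average in tamoxifen cells, where every type had fewer. Their larger share follows in large part from that choice and is no separate support.

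**Figure D4:**
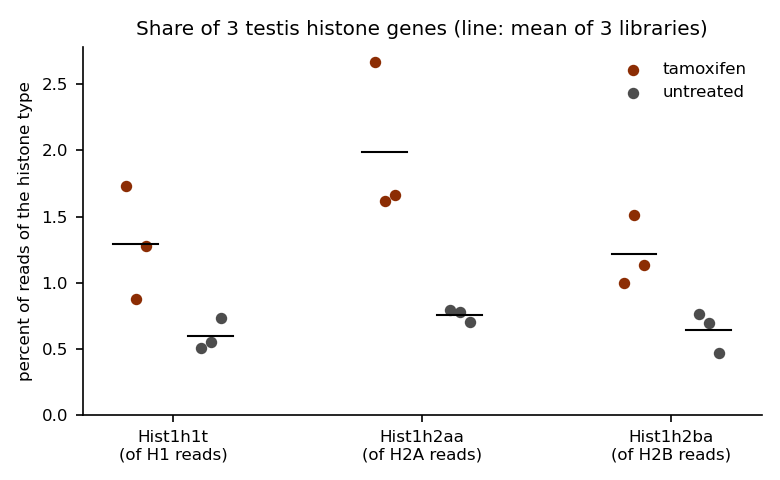
Percent of the reads of their histone type taken by Hist1h1t, Hist1h2aa and Hist1h2ba in each tamoxifen library (left of each pair) and each untreated library (right); lines are means of 3 libraries. For each gene the 3 tamoxifen points lie above the 3 untreated points. The genes were picked for more scaled reads on average in tamoxifen cells.

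The other 5 with a larger share included both Hist3 genes, which lie away from the main cluster on chromosome 11. Hist3h2a made up 11.0%, 11.9% and 10.1% of H2A reads in the tamoxifen libraries, against 8.38%, 9.83% and 7.81% in the untreated libraries. Hist3h2ba made up 1.72%, 1.09% and 1.18% of H2B reads in the tamoxifen libraries, against 0.971%, 0.965% and 0.925% in the untreated libraries. The remaining 3 were Hist1h1e, Hist1h3c and Hist2h3b, and the 3 with a smaller share were Hist1h2be, Hist1h3b and Hist1h4n. As clusters, the summed scaled reads of tamoxifen cells were 0.721 of those of untreated cells for the 2 Hist3 genes, 0.577 for the 6 Hist2 genes and 0.579 for the 43 Hist1 genes.

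The H2A and H2B genes of divergent pairs were expressed in unlike ratios. In 8 such pairs the starts lie within 400 bases of each other, and the ratio of H2A to H2B reads per kb of annotated exons was compared across libraries. For Hist1h2ag and Hist1h2bj it was 0.673 to 0.871 in the tamoxifen libraries and 0.751 to 1.08 in the untreated libraries. For Hist1h2ae and Hist1h2bg it was 0.482 to 0.881 in the tamoxifen libraries and 0.687 to 0.915 in the untreated libraries, and for Hist1h2ac and Hist1h2bc it was 0.756 to 1.19 in the tamoxifen libraries and 1.17 to 1.73 in the untreated libraries. The H2B gene had the higher level throughout for Hist1h2ae and Hist1h2bg, and also for Hist1h2ah and Hist1h2bk. For Hist1h2ah and Hist1h2bk the ratio was 0.324 to 0.490 in the tamoxifen libraries and 0.274 to 0.408 in the untreated libraries. The H2A gene had the higher level throughout in the other 4 pairs. For Hist1h2ad and Hist1h2bf, whose shared window is printed above, the ratio was 2.02 to 2.499 in the tamoxifen libraries and 2.20 to 3.79 in the untreated libraries. For Hist1h2an and Hist1h2bp it was 1.41 to 3.08 in the tamoxifen libraries and 1.804 to 2.85 in the untreated libraries, and for Hist1h2aa and Hist1h2ba it was 1.35 to 3.10 in the tamoxifen libraries and 1.26 to 1.85 in the untreated libraries. For Hist2h2ac and Hist2h2be, where Hist2h2be had 7 to 29 reads, it was 161 to 312 in the tamoxifen libraries and 226 to 381 in the untreated libraries. The exon models of that pair span 520 and 2620 bases. Its ratio of reads alone was 31.9 to 62 in the tamoxifen libraries and 44.9 to 75.7 in the untreated libraries. For Hist1h2ac and Hist1h2bc the models span 2482 and 1156 bases. Their ratio of reads alone was 1.62 to 2.56 in the tamoxifen libraries and 2.51 to 3.72 in the untreated libraries. The groups overlapped in all 8 pairs.

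The median library-to-library deviation of the histone genes spanned a wider range than that of other genes of the histone pathway. The median deviation from a gene's own mean, in log2 scaled reads, was -0.28, -0.57 and -0.03 for the members in the tamoxifen libraries and -0.75, 0.69 and 0.91 in the untreated libraries. For 26 S phase genes with at least 10 reads, which include the replication clamp Pcna and the helicase genes Mcm2 to Mcm7, it was -0.09, -0.14 and -0.11 in the tamoxifen libraries and -0.03, 0.23 and 0.07 in the untreated libraries. For 372 other protein-coding genes with transcripts under 1000 bases it was -0.11, -0.08 and -0.03 in the tamoxifen libraries and -0.09, 0.32 and 0.01 in the untreated libraries. After trends with GC content and length were removed, the members still stood at -0.22, -0.35 and 0.02 in the tamoxifen libraries and -0.51, 0.33 and 0.67 in the untreated libraries. The deviation of all genes correlated with GC content across genes at Spearman values of 0.00, -0.31 and 0.10 in the tamoxifen libraries and -0.57, 0.36 and 0.41 in the untreated libraries, so that the low and the high untreated libraries also differed in this. With transcript length the values were 0.11, 0.20 and 0.12 in the tamoxifen libraries and 0.19, -0.39 and -0.13 in the untreated libraries. The members had a median GC content of 57.9% and a median exonic length of 572 bases. The part of these trends in the histone differences was tested only as far as that removal goes.

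**Figure D5:**
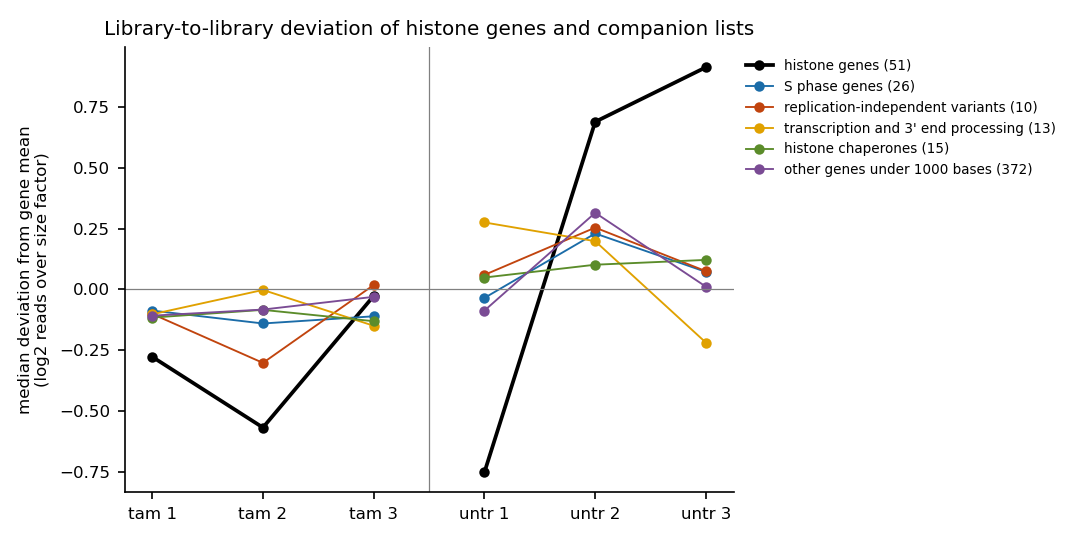
Median deviation from each gene's mean over the 6 libraries (log2 scaled reads) for the histone genes and 5 other sets, in the tamoxifen (tam) and untreated (untr) libraries; numbers in parentheses are genes and lines join the points of 1 set within a group. The histone genes span -0.75 to 0.91 in the untreated libraries, more than any of the other 5 sets. The set of replication-independent variants includes H2afx.

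A gene outside the clusters likewise had 1 low and 2 high untreated libraries. Of the 8 other protein-coding genes that hold the stem-loop letters near the stop codon, H2afx, which encodes the H2A variant H2A.X and is known to yield a stem-loop mRNA, had 1138, 904 and 1281 scaled reads in the tamoxifen libraries, against 847, 2165 and 2161 in the untreated libraries. Untreated 1 again lay below all tamoxifen libraries and the other untreated libraries above them. Btbd10 and Ppm1b, the other 2 of the 8 with more than a few reads, did not: Ppm1b had 273, 294 and 248 scaled reads in the tamoxifen libraries and 353, 203 and 239.7 in the untreated libraries. H2afx was singled out after its values were seen.

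No companion gene passed the test either. For the counts that follow, 3.99% of all genes were lower at an unadjusted p under 0.05 on deposited values and 0.195% were called. The 10 genes tested as replication-independent variants include H2afx, although it is known to yield a stem-loop mRNA. Of these 10, 0 were called in limma, and 1 was lower at an unadjusted p under 0.05, H3f3a, which encodes H3.3. Its deposited values were 807, 895 and 1187 in the tamoxifen libraries, against 1363, 1158 and 1410 in the untreated libraries (log2 fold change -0.46, unadjusted p 0.0424, adjusted p 0.528). Of the 13 genes of histone transcription and 3′ end processing, 0 were called and 1 was lower at that level, the U7 snRNP gene Lsm10 (log2 fold change -0.28, unadjusted p 0.0385, adjusted p 0.516). The stem-loop binding protein gene Slbp had 261, 289 and 218 scaled reads in the tamoxifen libraries, against 299, 389 and 307 in the untreated libraries, with no overlap on that scale (deposited log2 fold change -0.26, unadjusted p 0.119). Lsm11 and the cleavage factor gene Cpsf3 had deposited log2 fold changes of -0.44 and -0.18. With GC content and length trends removed, 3 of the 13 were lower at an unadjusted p under 0.05, against 5.12% of all genes, and 0 were called: Lsm10 at -0.50 (p 0.0387), Lsm11 at -0.64 (p 0.0231) and Cpsf3 at -0.37 (p 0.0260), with adjusted p of 0.437, 0.371 and 0.391 in limma. Of the 16 chaperone genes, 0 were called and 1 was lower at that level, Chaf1b, a subunit of chromatin assembly factor CAF-1 (log2 fold change -0.48, unadjusted p 0.0189, adjusted p 0.444). Rbbp7 and Cabin1 had deposited log2 fold changes of -0.36 and -0.20, and Asf1a, with 0 to 4 reads per library, was left without a fold. Of the 27 S phase genes tested, 0 were called and 0 passed at the unadjusted level, Pcna having a deposited log2 fold change of -0.33, Ccne1 one of -0.33, Rrm2 one of 0.16 and Tipin one of -0.98.

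Markers of another cell type moved with the groups. The 6 primitive endoderm markers summed to 363, 417 and 401 scaled reads in the tamoxifen libraries, against 186, 157 and 145 in the untreated libraries, with 5 of the 6 higher at an unadjusted p under 0.05 on deposited values, against 5.34% of all genes, and 0 called, against 0.195%. Their part in the histone values was not tested.

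The near-identity of the members limits what each row can carry. A median of 72.3% of the 50-base windows of a member's coding sequence occurred in another histone gene, and 37 of the 51 members shared over 50% of their windows. Hist1h1a, Hist1h1b, Hist1h1t, Hist2h2be and Hist3h2ba shared none. Of these, Hist1h1a and Hist1h1b had untreated 1 below and untreated 2 and 3 above all 3 tamoxifen libraries, and so did Hist2h2be on its few reads. Hist1h1t and Hist3h2ba did not: Hist3h2ba had 77.5, 38.6 and 57.9 scaled reads in the tamoxifen libraries and 31.2, 74.6 and 100.4 in the untreated libraries. The gene models of 20 members overlap another annotated gene, among them Hist1h1e and Hist1h2be, which overlap each other, and values of such members are uncertain.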

How the data were processed

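Ribosomal RNA-depleted total RNA was sequenced in 3 tamoxifen and 3 untreated libraries of mouse embryonic stem cells. The submitters' processing notes name TopHat2, bedtools, DESeq2 and the build mm9, without versions or order; how reads matching several genes were counted is not given in the sources used here. The authors deposited 1 table of a normalised signal per Ensembl gene. From the values, each is 9.73 times (m + 0.1), times reads over (reads + 0.1), where m is a second whole number. The deposited values take the same steps in every library, with exactly 10 genes at the highest step. A value therefore follows the step set by m and is not proportional to the reads. Solving for both whole numbers gave 1 solution for 98.8% of values, with a relative misfit of at most 5.1e-15, and 2333978 to 5689696 reads per library.

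The main test was limma 3.58.1 in R 4.3.3 with an expression trend on log2(value + 1), over 17427 genes with deposited values averaging 10 or more, with Benjamini-Hochberg adjustment and a threshold of 0.05. A fold change of a gene with few reads is uncertain on this scale, where 1 read can stand for many deposited units. The same test was run on recovered reads over median-ratio size factors, over library totals, and after a spline of 5 degrees of freedom in GC content and in length was removed from each library (16000 genes). These read-based fits with libraries left out were added after seeing the data. The script was tested on simulated data. Gene models are GENCODE vM21 (GRCm38), joined by Ensembl identifier; coordinates are not those of the authors' build. Promoters are from RefSeq (GRCm38.p6). The labels state no batch. Members and companion lists were chosen with earlier results of these data known. Members named in full were the 4 with the most reads per kb in each type, any called, and up to 5 in each direction with the smallest unadjusted p under 0.05; from each companion list, the 4 with the smallest p. Other members are named as chosen after their values were seen: Hist1h1t, Hist1h2aa, Hist1h2ba, the Hist3 genes, Hist1h2ak, Hist2h2be, those in the neighbour pairs and those counted by share. Alternatives were another pseudocount, other filters, a trimmed-mean scaling, limma without a trend, a replicate block and each library left out.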

Additional observations from a re-analysis of the deposited data

How the results depend on the processing

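Over all genes, limma called 34 with the settings used. It called 52 with a pseudocount of 10, 52 without a filter on low values, 15 among genes with at least 10 reads, 7 on reads over library totals, 4 on reads over size factors, 62 without an expression trend, 0 with a replicate block and 66 to 103 with 1 library left out. None of these fits called a histone gene. The labels state no pairing by replicate number. On deposited values, deviations of same-numbered libraries from their group means correlated at -0.0103, -0.0443 and 0.0113. That scale takes the same steps in every library, so these values do not settle whether the samples pair. With the block, the members at an unadjusted p under 0.05 in limma numbered 1 on deposited values (7.99% of all genes) and 6 on reads over size factors (7.49% of all genes). They numbered 0 on reads over library totals (5.86% of all genes) and 6 with GC content and length trends removed (10.6% of all genes). The count of 3 members at that level on deposited values was 1 on reads over library totals, 1 on reads over size factors, 1 without a trend, and 1 to 8 with 1 library left out. On reads over size factors the count of 1 was 0 to 45, on reads over library totals the count of 1 was 0 to 19, and with GC content and length trends removed the count of 4 was 1 to 42, the highest each time being without untreated 1. With those trends removed, the members called numbered 0 to 4 with 1 library left out: without untreated 1, Hist1h1d, Hist1h2be, Hist1h4n and Hist2h2aa2 were called lower, against 0.181% of all genes. The median log2 fold change of the members was -0.36 on reads over library totals, a scale on which the median of all genes was 0.25, -0.63 on reads over size factors and -0.38 with GC content and length trends removed. The cause of these shifts was not tested.

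Among 38 named genes and 569 alternative values, 512 kept their direction and side of the threshold and 57 turned the sign of a log2 fold change that had not passed the test. These values do not include the read-based fits with 1 library left out. Among those fits, the named genes Hist1h1d and Hist1h4n were called lower without untreated 1, with GC content and length trends removed. On reads over size factors, reads over library totals and reads with GC content and length trends removed, in that order, Hist1h1c stood at -0.57, -0.30 and -0.46, Hist1h2ab at -0.63, -0.36 and -0.31, Hist1h2ad at -0.74, -0.47 and -0.48, Hist1h2ag at -0.60, -0.33 and -0.29, Hist1h2bj at -0.39, -0.12 and -0.10, Hist1h3a at -0.49, -0.22 and -0.22, Hist1h3c at -0.42, -0.15 and -0.20, Hist2h3b at -0.35, -0.075 and -0.0055, Hist1h4b at -0.55, -0.28 and -0.25, Hist1h4d at -0.60, -0.33 and -0.49, and Hist1h4f at -0.70, -0.43 and -0.39. On reads over library totals H2afy2 stood at 0.0197 and Cabin1 at 0.11. With trimmed-mean scaling, Hist1h1a, Hist1h1b and Hist1h1d each stood at 0.0095. With 1 library left out, the log2 fold change on deposited values ranged for Hist1h1b from -0.14 to 0.14, for Hist1h1c from -0.20 to 0.38, for Hist1h1d from -0.18 to 0.18, for Hist1h2ab from -0.043 to 0.16, for Hist1h2ad from -0.27 to 0.32, for Hist1h2ag from -0.11 to 0.19, for Hist1h2bb from -0.42 to 0.033, for Hist1h2bg from -0.46 to 0.019, for Hist1h3b from -0.61 to 0.30, and for Hist1h4d from -0.085 to 0.19. Counts near 10 reads, as for Hist2h2be, limit what a fold change can show, and intervals of the order of 1 log2 unit either way limit the rest.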
